A study of Rattus norvegicus with 13 samples.

Results

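Tumour necrosis factor (Tnf), the lymphotoxins (Lta and Ltb) and the TNF receptor gene Tnfrsf1b were described on 13 arrays. Each array was made from total RNA of septal coronary arteries of rats of the F344 strain, which is inbred and used in research on ageing. Arteries came from rats of 26 months (aged, 6 arrays) or 3 months (young, 7 arrays), with no treatment or genetic change named in the labels. Per the labels, more endothelial cells underwent apoptosis in the aged vessels. Values are ratios to beta-actin on the same array. The 4 genes are 4 of the 96 gene probes of the array, found by their symbols in the platform annotation. They were chosen because Tnf and Lta had higher ratios in aged arteries on these same arrays, so their age differences are given as a description, without a test.

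TNF and lymphotoxin alpha are secreted as trimers, and both can bind the receptors encoded by Tnfrsf1a, which carries a death domain, and Tnfrsf1b, which has none and signals through TRAF adaptors. Lymphotoxin beta holds lymphotoxin alpha at the cell surface in a mixed trimer that binds another receptor, encoded by Ltbr. In the vessel wall TNF is known as a product of macrophages and of smooth muscle cells under stress, and lymphotoxins are best known as products of lymphocytes.

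The ligand genes lie side by side. On rat chromosome 20 the order is Lta, Tnf, Ltb, with 0 protein-coding genes between Lta and Tnf and 0 between Tnf and Ltb in RefSeq's GRCr8 annotation, while Tnfrsf1b lies on chromosome 5. The 250 bases before the annotated start of 3 of the genes are shown because Tnf and Lta are the neighbours whose age groups did not overlap, and Tnfrsf1b is the gene relative to which Lta varied least from array to array. Sequences are from RefSeq (GRCr8), 5′ to 3′ along the gene. Capitals mark matches on either strand to a loose kappaB pattern, GGG followed by any 5 bases and then CC, which is a wide form of the site bound by NF-kappaB factors, and to TATAAA, the core of an element found shortly before the start of many genes.
Tnf (chr20:3626435-3626684, plus strand): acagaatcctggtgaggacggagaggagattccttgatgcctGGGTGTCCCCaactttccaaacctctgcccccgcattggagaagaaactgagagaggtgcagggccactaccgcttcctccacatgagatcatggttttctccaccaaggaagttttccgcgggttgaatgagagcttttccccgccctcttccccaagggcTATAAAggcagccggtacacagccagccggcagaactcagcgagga
Lta (chr20:3623277-3623526, plus strand): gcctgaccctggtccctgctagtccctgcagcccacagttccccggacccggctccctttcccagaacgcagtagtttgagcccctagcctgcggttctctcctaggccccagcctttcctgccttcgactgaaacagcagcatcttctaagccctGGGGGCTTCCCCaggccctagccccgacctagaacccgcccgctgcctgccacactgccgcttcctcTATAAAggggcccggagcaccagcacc
Tnfrsf1b (chr5:162387412-162387661, minus strand): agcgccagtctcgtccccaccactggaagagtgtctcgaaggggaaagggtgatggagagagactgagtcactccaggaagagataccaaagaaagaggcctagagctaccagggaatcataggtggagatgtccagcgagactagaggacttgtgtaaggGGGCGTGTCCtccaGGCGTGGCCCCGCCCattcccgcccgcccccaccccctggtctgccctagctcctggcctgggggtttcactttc
The kappaB matches begin 208 bases before the start in Tnf, 94, 93 and 92 bases before it in Lta, where the matches overlap, and 89, 75 and 70 bases before it in Tnfrsf1b. TATAAA starts 46 bases before the Tnf start and 27 bases before the Lta start, and it is not in the Tnfrsf1b window. The Ltb window held 1 kappaB match and 0 of TATAAA. In windows of this length, 42.3% of 33469 rat promoters held the kappaB pattern and 12.9% held TATAAA, so a match to the loose pattern is common and is given here as a description of the letters only. The Lta window begins inside the span of the gene, since RefSeq places the start of the gene upstream of it.

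Tnf, the proinflammatory cytokine, was measured on all 6 aged arrays, with a lowest ratio of 0.18, a median of 0.205 and a highest of 0.3. In young arteries it had a lowest ratio of 0.02, a median of 0.06 and a highest of 0.12 on 6 arrays, and young replicate 4 was blank. Every aged value lay above every measured young value. The means were 0.223 ± 0.050 (SD, n = 6) and 0.062 ± 0.036 (SD, n = 6), and the mean log2 ratios differed by 2.06 (limma SE 0.51), a 4.18-fold difference. The aged arrays were close together, with a highest value 1.67 times the lowest, while the young values ran over a 6-fold range. The lowest young values are only a few rounding steps of 0.01 above 0. With each aged value lowered and each young value raised by 0.005, the log2 difference was 1.88.

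Lta, which encodes lymphotoxin alpha, was measured on every array at ratios well above the rounding step. The lowest, median and highest ratios were 2.01, 3.08 and 3.56 in aged arteries. They were 0.46, 1.51 and 1.98 in young arteries. The groups again did not overlap, although the highest young array (replicate 5) came close to the lowest aged one (replicate 1). The mean ratio was 2.90 ± 0.66 over the 6 aged arrays and 1.40 ± 0.52 over the 7 young arrays (SD), and the mean log2 ratios differed by 1.15 (limma SE 0.46), a 2.21-fold difference. Young replicate 1 held the lowest value, 0.46, followed by young replicate 2 at 0.94. Without young replicate 1 the log2 difference was 0.90. Among the 70 gene probes with at least 3 values in each group, the Lta difference over all arrays ranked 6th. Tnf, Casp9 (1.61), Gadd45a (1.26), Dffa (1.22) and Bcl2 (1.16) had larger ones.

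Ltb, the membrane-bound partner of lymphotoxin alpha, was the sparsest of the ligands. In aged arteries it was 0.05, 0.07, 0.1 and 0.21 on replicates 2, 3, 4 and 5, and blank on 2 arrays. In young arteries it was 0.14, 0.05, 0.17 and 0.12 on replicates 1, 3, 4 and 5, and blank on 3 arrays. The groups overlapped over most of their range. The means were 0.108 ± 0.071 and 0.120 ± 0.051 (SD, n = 4 in each group), with a log2 difference of -0.24 (limma SE 0.67) that turned to 0.06 without aged replicate 2 and to 0.17 when blanks were given the lowest ratio of the table, 0.01. This difference was smaller than the spread of Ltb within either group.

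Tnfrsf1b, the receptor, was measured on every array. Its lowest, median and highest ratios were 1.82, 3.15 and 4.5 in aged arteries and 0.7, 3.18 and 3.61 in young arteries, so the medians lay close together and the groups overlapped. The 5 young arrays from replicate 3 to replicate 7 fell between 3.16 and 3.61, and replicates 1 and 2 stood at 0.7 and 2.05. The means were 3.19 ± 0.95 (SD, n = 6) and 2.77 ± 1.04 (SD, n = 7), a log2 difference of 0.30 (limma SE 0.48). The difference rested on young replicate 1, since it was -0.0019 without that array, and it was 0.19 without aged replicate 2.

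**Figure D1:**
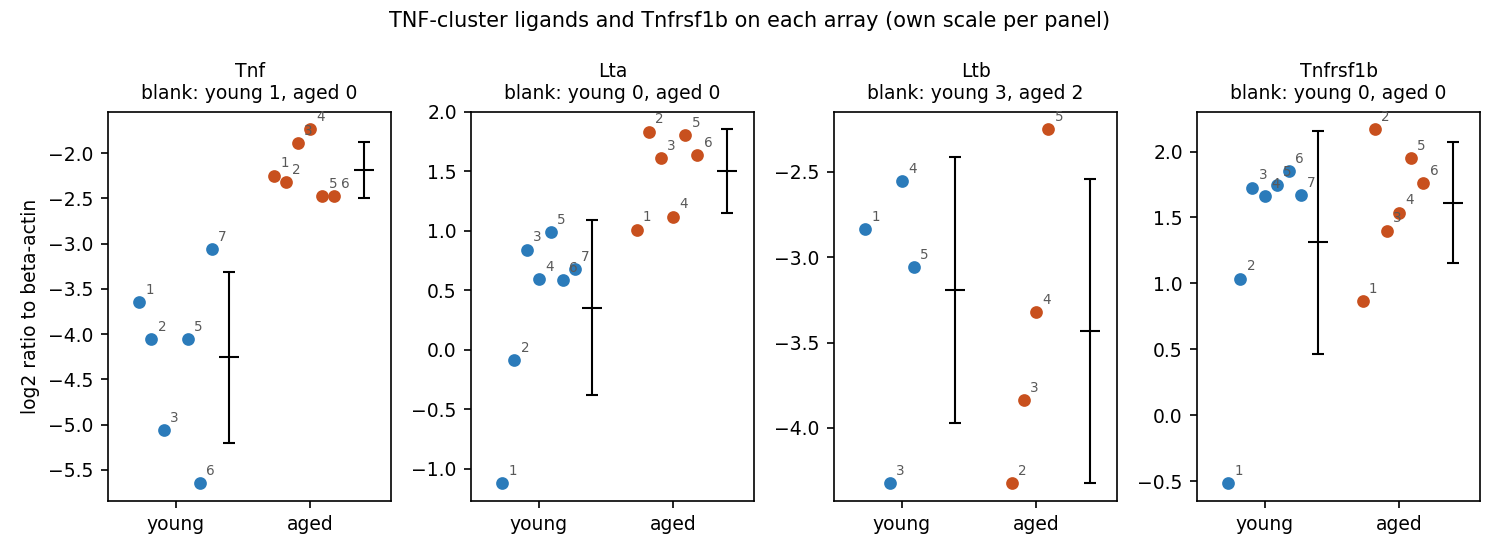
Log2 ratio to beta-actin of Tnf, Lta, Ltb and Tnfrsf1b on each array, with replicate numbers beside the points and the mean ± SD of each group as black bars; each panel has its own vertical scale. Aged and young points are apart for Tnf and Lta and mixed for Ltb and Tnfrsf1b, and young replicate 1 is lowest in both Lta and Tnfrsf1b.

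Over the 70 gene probes with at least 3 values in each group, 2 had age groups that did not overlap with the aged group higher (2.86%), and these were Tnf and Lta. With the aged group lower, 0 of the 70 did not overlap. The count rose to 4 without aged replicate 5 and to 5 without aged replicate 6, with Tnf and Lta among them in each case. By limma at an adjusted p under 0.05, 1 of the 70 passed (1.43%). It was Tnf, one of the genes whose values chose the members, so the count is background and no test of Tnf. That count was 0 after centring on the reference genes or on the 13 probes described next, with blanks at 0.01, with the rounding narrowed as above, and without aged replicates 1, 2, 3, 4 or 6 and without young replicates 3, 5 or 6. Because the members were chosen from this contrast, nothing is read from these counts. Among the 4 members 3 were higher on average in aged arteries (mean log2 ratio) and their median log2 difference was 0.72. Among all 70 probes 40 were, and the median was 0.06. Of the 13 probes described next 12 were, with a median of 0.85, above that of the members. The members' count and median follow in part from the choice of Tnf and Lta.

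Most of the other gene probes measured on every array were also higher in aged arteries. The exception among the 13 was Traf4, with a log2 difference of -0.10, and Casp8 differed by only 0.03. The mean log2 ratio of the 13 other gene probes measured on every array was -0.53 ± 0.38 on aged and -1.35 ± 0.89 on young arrays (SD, n = 6 and 7), and it was lowest, at -2.76, on young replicate 1. From there it rose with each young replicate number, through -2.10, -1.44, -1.35, -0.872 and -0.867 to -0.047 on replicate 7. Aged replicates 1 to 6 stood at -0.92, -0.95, -0.37, -0.71, -0.12 and -0.12. The labels do not say what the replicate numbers stand for. The part of this order in the age differences, the young spread and the correlations was not tested. With each array centred on these 13 probes the log2 differences were 1.25 for Tnf, 0.33 for Lta, -1.31 for Ltb and -0.51 for Tnfrsf1b. Centred on the reference genes Actb, Gapdh and Rpl13a they were 1.80, 0.91, -0.41 and 0.06, and centred on the array median, over all measured gene probes, they were 2.07, 1.16, -0.37 and 0.32. Tnf was higher in aged arteries under each of the scalings run, and its groups did not overlap after centring on the reference genes or on the array median. The Lta groups overlapped under each of the 3 centrings. The 13 probes are themselves apoptosis genes, and the part of their level in the Tnf and Lta differences was not tested. Of 27 markers of smooth muscle, endothelium, cardiomyocytes, fibroblasts and leukocytes, 1 (Cd40) was on the array, so the labelled tissue could not be checked against its markers, and a change in the number of cells that make a transcript cannot be told apart from a change in RNA per cell.

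The members varied among arrays of the same age to different degrees. The SD of the log2 ratio was 0.31 in aged and 0.94 in young arteries for Tnf, 0.35 and 0.73 for Lta, 0.89 and 0.78 for Ltb, and 0.46 and 0.85 for Tnfrsf1b. The larger spread in young arteries was shared by 13 of the 15 gene probes measured on every array and by 45 of the 70 tested.

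The correlation of Lta and Tnfrsf1b across arrays was positive within each age group. In aged arteries Pearson's r of the log2 ratios was 0.84 (n = 6, exact permutation p = 0.025, adjusted p = 0.075 over 6 relations) and Spearman's rho was 0.94 (exact permutation p = 0.017, adjusted p = 0.10). Without the 2 arrays farthest from the median Lta ratio, aged replicates 1 and 4, r was 0.91. In young arteries r was 0.97 (n = 7, exact permutation p = 0.011, adjusted p = 0.067) and rho was 0.64 (exact permutation p = 0.14, adjusted p = 0.28). Without young replicates 1 and 2, the farthest from the median, r was -0.01, so the relation in young arteries rests on these 2 arrays. The remaining 5 young arrays cover a narrow range of both genes. No relation passed the adjustment on the ratios as deposited.

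Both genes carry the beta-actin signal of their array in the denominator. Centring removes that signal but subtracts the level of the 13 probes from both genes. This level is then a shared term, which can by itself raise or lower r. With each array centred on the 13 other probes, r of Lta and Tnfrsf1b was 0.91 in young arteries (exact permutation p = 0.0071, adjusted p = 0.043) and 0.89 in aged arteries (exact permutation p = 0.13, adjusted p = 0.38). Spearman's rho of the centred values was 0.89 in young arteries (exact permutation p = 0.012, adjusted p = 0.074) and only 0.03 in aged arteries. Neither rho passed the adjustment. Without the 2 arrays farthest from the median of the centred Lta values it was 0.63 in young and -0.89 in aged arteries, so in aged arteries the centred relation rests on replicates 2 and 6. Against the level itself, r was 0.82 for Lta and 0.81 for Tnfrsf1b in young arteries (n = 7, exact permutation p = 0.018 and 0.011, adjusted p = 0.054 for both over 6 relations), with rho of 0.54 and 0.71. Without young replicates 1 and 7, the farthest from the median level, r was 0.80 and 0.91. In aged arteries r against the level was 0.47 and 0.27 (n = 6, exact permutation p = 0.34 and 0.63), with rho of 0.14 and 0.09.

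The correlations of Tnf with these genes were negative and did not pass the test. Its r with Lta was -0.51 in aged and -0.32 in young arteries, and its r with Tnfrsf1b was -0.37 and -0.40 (n = 6 in each, exact permutation p = 0.25, 0.54, 0.47 and 0.41). Spearman's rho was -0.64, -0.20, -0.58 and -0.70 in the same order, and the adjusted p-values of r were 0.51 to 0.54. Without the 2 arrays farthest from the median Tnf ratio, r was -0.66, 0.04, -0.57 and 0.04. Young replicate 1 shows the contrast, with the lowest Lta and Tnfrsf1b ratios of any array and a Tnf ratio of 0.08, the second highest of the young arrays. Against the array level r of Tnf was -0.32 in aged and 0.01 in young arteries (n = 6 in each, exact permutation p = 0.48 and 0.98), with rho of -0.46 and -0.03. Ltb had a value on only 4 arrays of each group and was not correlated.

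**Figure D2:**
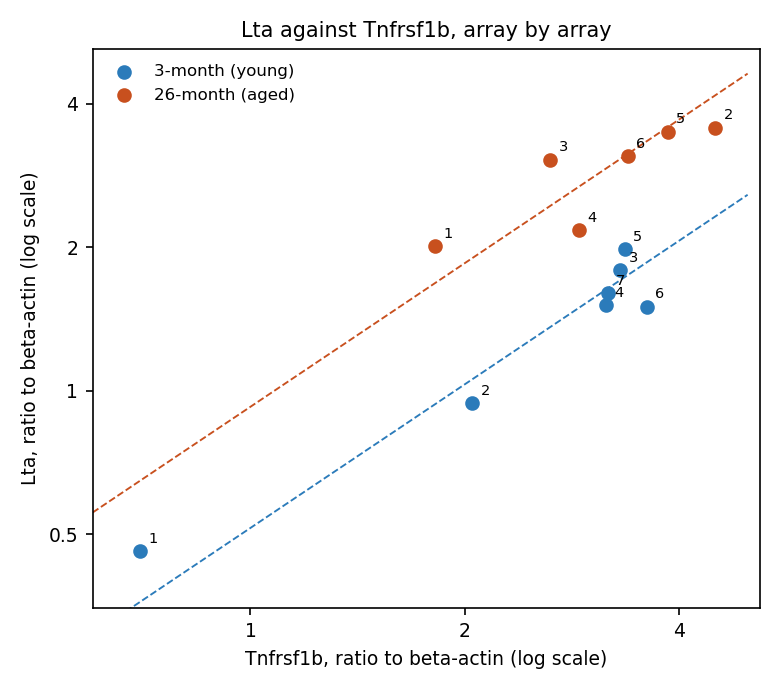
Lta against Tnfrsf1b, both as the ratio to beta-actin on log axes, 1 point per array with its replicate number; each dashed line is the mean within-array ratio of Lta to Tnfrsf1b in an age group. Each of the 6 aged arrays has a higher ratio of Lta to Tnfrsf1b than any of the 7 young arrays, and young replicates 1 and 2 lie far to the left of the other young arrays.

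Ratios of 2 members within an array do not contain the beta-actin signal. Probes differ in labelling and hybridisation, so only differences of such a ratio between arrays are read, not its size. The ratio of Lta to Tnfrsf1b had a lowest value of 0.748, a median of 0.909 and a highest of 1.16 on the aged arrays. On the young arrays these were 0.416, 0.503 and 0.657. The groups did not overlap. Its mean log2 value was -0.11 ± 0.25 over the aged and -0.96 ± 0.22 over the young arrays (SD, n = 6 and 7), a difference of 0.84, or 1.80-fold. Young replicate 1, which was extreme in both genes, had the highest young ratio, 0.657, above the 0.416 to 0.589 of the other 6 young arrays and below every aged one. Leaving out any 1 of the 13 arrays gave log2 differences of 0.78 to 0.91.

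This ratio stood out for its small spread. Its pooled SD within the age groups was 0.24 on the log2 scale, the smallest of the 105 pairs that can be formed from the 15 gene probes measured on every array. The next smallest, of Bik over the unnamed probe 78, was 0.29, and the median pair had 0.92. Paired with any of the other 13 probes, Lta had a spread of at least 0.67 and Tnfrsf1b of at least 0.64. In size the age difference of the ratio ranked 24th of the 105. Lta over Tnfrsf1b was the 1 pair of the 105 (0.952%) whose age groups did not overlap, and it remained the 1 such pair when any 1 array was left out. Lta enters this ratio as the gene whose own groups did not overlap, so the ratio is described and not tested.

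**Figure D3:**
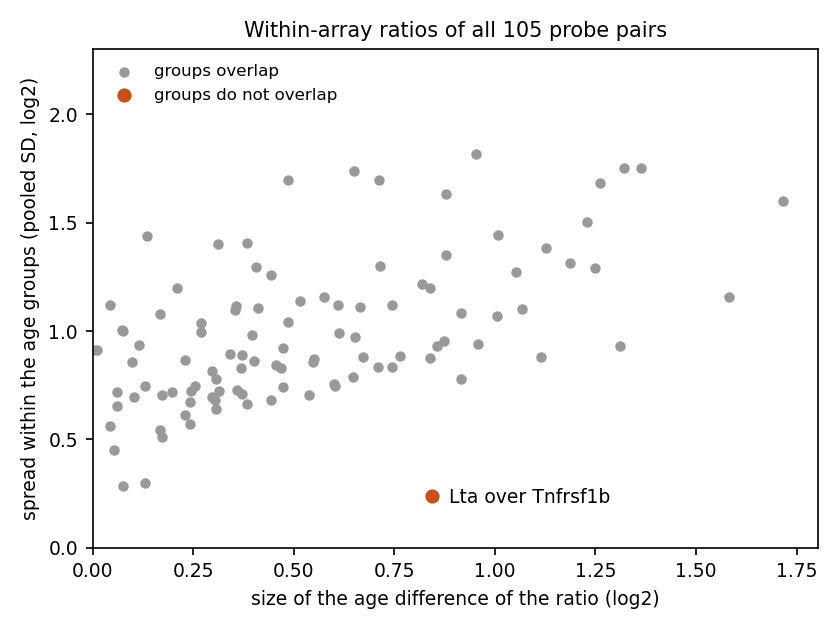
Size of the age difference (horizontal, log2) and spread within the age groups (vertical, pooled SD, log2) for the within-array ratios of all 105 pairs of the 15 gene probes measured on every array. The ratio of Lta to Tnfrsf1b, the coloured point, has the smallest spread (0.24), with an age difference of 0.84.

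The ratios that involve Tnf were far more scattered. Tnf over Tnfrsf1b had a lowest value of 0.0444, a median of 0.0777 and a highest of 0.115 on the aged arrays, and 0.00554, 0.0236 and 0.114 on the 6 young arrays with a Tnf value. The groups overlapped through young replicate 1 alone, at 0.114, since the next young array stood at 0.0377, below the lowest aged one. The log2 difference was 1.70, with SDs of 0.64 (n = 6) and 1.56 (n = 6), and it ran from 1.30 without young replicate 6 to 2.18 without young replicate 1.

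Tnf over Lta, the ratio of the neighbouring ligand genes, had a mean log2 of -3.69 ± 0.58 on aged and -4.57 ± 1.41 on young arrays (SD, n = 6 in each), a difference of 0.88. The groups overlapped, and the difference was 0.54 without young replicate 6 and 1.28 without young replicate 1. Set against each of the 15 gene probes measured on every array, Tnf had log2 differences of 0.26 to 2.27. Their sign was fixed by the choice of Tnf, whose age difference was larger than that of any of the 15. The groups of this ratio did not overlap in 1 case, against Tnfrsf21. Ltb over Tnfrsf1b differed by -0.85, with SDs of 0.96 and 1.55 (n = 4 in each), and its groups overlapped; the difference was -0.17 without young replicate 1 and -1.41 without young replicate 3.

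**Figure D4:**
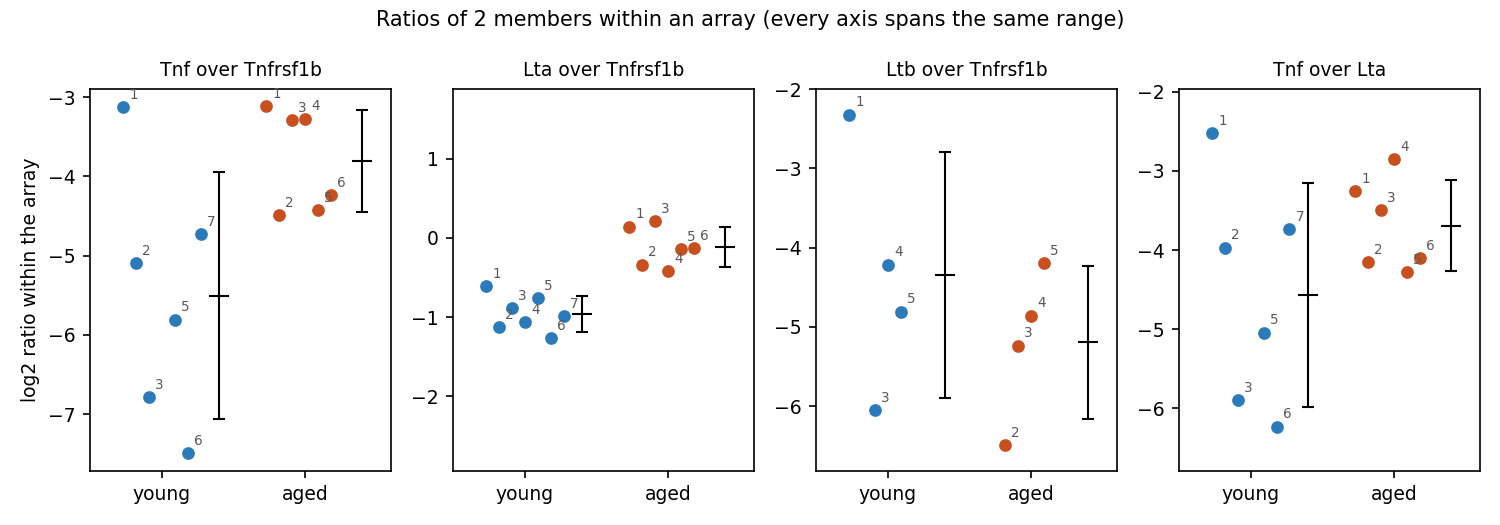
Log2 ratios of 2 members within each array, with replicate numbers and the mean ± SD of each group as black bars; every vertical axis spans the same number of log2 units. Lta over Tnfrsf1b is tightly grouped and separated by age, whereas the ratios with Tnf or Ltb scatter over several log2 units in young arteries.

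The probes most like each member were ranked by Pearson's r of log2 ratios after the mean of each age group was subtracted, over at least 10 shared arrays. These values are descriptions, and probes of an array share its beta-actin signal. For Tnf they were Casp14 (0.79 over 11 arrays), the unnamed probe 39 (0.45 over 11) and the death receptor Tnfrsf21 (0.40 over 12), and the median over 30 eligible probes was -0.01. For Lta they were the DNA damage gene Gadd45a (0.95 over 13), Tnfrsf1b (0.95 over 13) and Atm, a kinase of the DNA damage response (0.82 over 10), with a median of 0.42 over 36 probes. For Tnfrsf1b they were Lta (0.95), Gadd45a (0.86) and the death receptor Tnfrsf25 (0.84), each over 13 arrays, with a median of 0.31 over 36 probes. After centring on the 13 probes, which include Gadd45a, Tnfrsf21 and Tnfrsf25, r of Lta and Tnfrsf1b was 0.89 and that of Lta and Gadd45a was 0.30. The r of Tnf and Tnfrsf21 became 0.75. The subtracted level is shared by both genes of each pair, so these values are not free of a common term. Casp14 kept 0.84 with Tnf.

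Of 28 other genes of TNF and lymphotoxin signalling, 12 were on the array and 10 had enough values for the test. By limma 0 of the 10 rose and 0 fell, and 0 had an unadjusted p under 0.05. Over all 70 probes 1 passed the adjusted threshold (1.43%) and 4 had an unadjusted p under 0.05. Only Casp9 and Cd27 of these 4 are not members, and the 1 that passed was Tnf. These shares thus include genes chosen from this contrast. On the log2 scale the aged mean was the higher one for 6 of the 10, and the median difference was 0.06, as over all 70 probes. After centring on the 13 probes 2 of the 10 were higher, though Traf1 and Casp8 are themselves among the 13.

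Among the receptors, Ltbr, which binds the mixed lymphotoxin trimer, ran from 0.06 to 0.34 on 5 aged and from 0.06 to 0.14 on 6 young arrays (log2 difference 0.08, limma SE 0.54). Tnfrsf1a, the death-domain TNF receptor, had values of 0.04 to 0.13 on 3 aged arrays and 0.19 on 1 young array, too few for a test. Tnfsf14, a ligand of Ltbr, stood at 0.337 ± 0.209 on aged and 0.260 ± 0.128 on young arrays (SD, n = 6 in each, log2 difference 0.31, limma SE 0.55).

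Among the adaptors, Traf1, which associates with Tnfrsf1b through Traf2, stood at 0.582 ± 0.222 on aged and 0.309 ± 0.140 on young arrays (SD, n = 6 and 7, log2 difference 0.95, adjusted p = 0.64 by limma). The Traf1 difference was 0.13 after centring on the 13 probes, but Traf1 is one of them, so part of its own difference was subtracted. Traf2 and Traf5, which pass the signals of these receptors on, had log2 differences of 0.51 and -0.51. The ubiquitin ligases Birc2 and Birc3, which bind Traf2, had 0.37 and -1.01, and Casp8, the caspase recruited by death-domain receptors, had 0.03. Fadd, the adaptor that recruits Casp8, and Cflar, its inhibitor, had -0.66 and -0.98. The adjusted p-values of the 10 genes were 0.64 to 0.98 by limma.

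**Figure D5:**
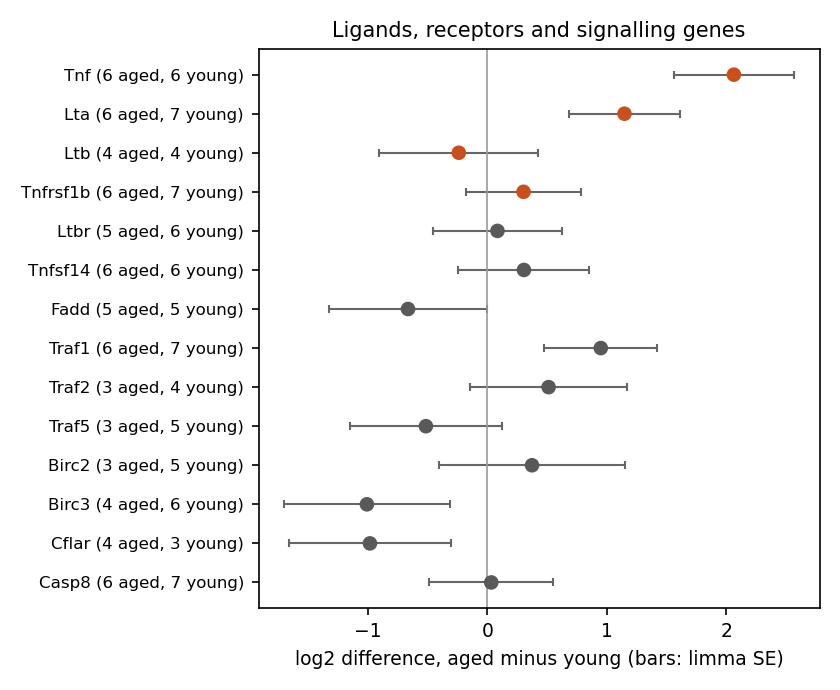
Difference of the mean log2 ratios to beta-actin, aged minus young, with limma SE as bars. The 4 members are coloured and the 10 tested genes of TNF and lymphotoxin signalling are grey, with the number of arrays that had a value. Tnf and Lta, which were chosen for their higher aged ratios, lie to the right of the other genes shown, at 2.06 and 1.15. The nearest signalling gene is Traf1 at 0.95.

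TNF family genes mainly of lymphocytes and antigen-presenting cells were examined because lymphotoxins are lymphocyte cytokines. Of 15 such genes 10 were on the array and 8 were tested. By limma 0 rose and 0 fell, with 1 of the 8, Cd27, at an unadjusted p under 0.05 (log2 difference -1.45, adjusted p = 0.64 by limma), against 4 of the 70 overall. Those 4 include Cd27 itself and members chosen from this contrast. Of the 8, 2 had the higher log2 mean in the aged group as deposited, against 6 with blanks at 0.01, and the median difference was -0.36 as deposited. The summed ratio of the 10 genes ran from 0.27 to 1.17 on aged and from 0.16 to 0.71 on young arrays, and the part of such cells in the Lta difference was not tested. Blanks add nothing to such a sum, so it depends on how many of the genes had a value on an array. Tnfrsf4 and Tnfsf9, for example, had a value on only 1 aged array each.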

How the data were processed

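The values deposited by the authors are linear ratios, 1 per probe and array, rounded to 2 decimals. That each is a ratio to beta-actin was read from the values: the 2 Actb spots average 1 on every array. For the scanner and any correction for background, the method is not given in the sources used. Of 1248 cells of gene probes 426 (34.1%) were blank, and they were kept missing. Depth has no counterpart here, and the number of arrays limits the precision. The labels do not say whether arrays came from separate animals, so p-values measure the spread between arrays, which may be technical. Symbols are those of the platform annotation; 0 of the gene IDs of its 91 probes occur in the rat gene table (RefSeq, GRCr8), and all 4 members have a rat gene of the same symbol. It is thus not settled from which organism the probes were designed, and the rat promoters were matched by symbol alone.

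Log2 ratios of 70 gene probes (at least 3 values in each group) were fitted with limma 3.58.1 in R 4.3.3, with age as the only factor, two-sided, with Benjamini-Hochberg adjustment over the 70 at 0.05. Correlations used exact two-sided permutation tests over all pairings within an age group. The named genes are the members, the 3 probes most like each, and preset signalling genes where measured. Members, lists and tests were chosen with earlier results of these data known. Alternatives covered 3 centrings, a pseudocount of 0.02, blanks at 0.01, other filters, the rounding, medians, linear ratios, a replicate block and each array left out.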

Additional observations from a re-analysis of the deposited data

How the results depend on the processing

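Of 102 values recomputed under other settings 83 kept their direction and side of the threshold or moved by less than 1 SD, as did 167 of the 180 with 1 array left out. Centring on the 13 probes moved the log2 differences to 1.25 (Tnf), 0.33 (Lta), -1.31 (Ltb) and -0.51 (Tnfrsf1b), and the cause was not tested. The limma count of 1 probe became 0 with centring on the reference genes, with centring on the 13 probes, with blanks at 0.01 and with the rounding narrowed (a setting added after the data were seen), and it was 0 to 1 with 1 array left out. The count of probes whose groups do not overlap was 4 under each of the 3 centrings, but the genes changed. Lta was in none of these sets, and Tnf was not in the set from centring on the 13 probes. Cd27 and Tnfrsf8 were in each, joined by Traf5 (reference genes), Traf6 and probe 96 (13 probes) or probe 96 (array median). As deposited, these 5 probes had lower mean log2 ratios in aged arteries. With 1 array left out the count was 2 to 5, with Tnf and Lta in each case. For Lta and Tnfrsf1b, r passed the adjustment in aged arteries with centring on the reference genes (0.86) and in young arteries with that centring (0.97) and with centring on the 13 probes (0.91). Spearman's rho after centring on the 13 probes did not pass in either age group. With 1 array left out r of Lta and Tnfrsf1b was 0.67 to 0.95 in aged and 0.88 to 0.98 in young arteries, and it passed without aged replicate 3, aged replicate 4 or young replicate 6 (exact permutation, adjusted p = 0.033, 0.033 and 0.0083). Centring on the 13 probes turned the sign of r of Tnf and Lta (0.30 in aged and 0.075 in young arteries) and of Tnf and Tnfrsf1b in aged arteries (0.29), and rho of Tnf and the level in young arteries was -0.029. The deviations of same-numbered arrays correlated with r over 0.1 in 3 of 6 pairs (median 0.13), against 9 of 36 pairs of other numbers (median -0.02). For 3 of the 6 aged arrays the highest r was with the young array of the same number. Since not every pair was over 0.1, the numbers were not taken as pairs, and a shared order of the arrays was not tested. With the replicate block, over the 6 same-numbered pairs, 0 of 62 probes passed, and the log2 differences were 2.21 (Tnf), 1.20 (Lta), 0.18 (Ltb) and 0.36 (Tnfrsf1b), from the pairs with both values. Rounding and blanks bear on Tnf and Ltb, the dim members.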
